A study of Homo sapiens and Mus musculus with 21 samples.

Results

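The genes described here are 8 genes of the liver X receptor (LXR) pathway and of cholesterol efflux: the receptors NR1H2 and NR1H3, the transporters ABCA1 and ABCG1, the apolipoprotein APOE, the ubiquitin ligase MYLIP, the acyltransferase LPCAT3 and the phosphodiesterase SMPDL3A. They were picked by gene symbol from the 60674 genes of both human count tables, and by the mouse form of the symbol from the 41214 genes of the mouse table, and all 8 were present in each. They were named for their place in the pathway with the response of ABCA1 to GSK126 in H2810 cells already known, so that response and its difference between lines are given here as a description with no test.

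RNA was sequenced from mesothelioma cells, a cancer of the lining of the chest wall and lung, in 21 libraries. In mouse tumor cells, 3 libraries lacked Bap1, Nf2 and Cdkn2ab (BNC) and 2 lacked Nf2 and Cdkn2ab only (NC), so loss of Nf2 and Cdkn2ab was common to both groups. Among human cell lines, H2810, labelled wild type for BAP1, and H2731, labelled as BAP1 mutated, were each treated with GSK126 or with DMSO, with 2 libraries per group. H2810 and MSTO-211H cells carried either a hairpin against BAP1 (shBAP1) or a random hairpin, again with 2 libraries per group. BAP1 is a deubiquitinase that acts on histone H2A, and GSK126 inhibits EZH2, the histone methyltransferase of Polycomb repressive complex 2. Each BAP1 state is represented by a single line in the inhibitor experiment, 1 hairpin against BAP1 is named, and nothing states that libraries of a group came from separate cultures, so p-values measure the spread between these libraries, which may be technical.

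LXRs are nuclear receptors that bind oxysterols, the oxidised forms of cholesterol, and act on DNA as partners of the retinoid X receptor (RXR). When cholesterol is plentiful they raise transcription of genes that move cholesterol out of the cell and limit its uptake, and they are best studied in macrophages and liver. A second sensor, SREBP2, works in the opposite direction: it raises cholesterol synthesis and uptake genes when cholesterol in the endoplasmic reticulum is low.

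The LXR-RXR pair binds a direct repeat of AGGTCA spaced by 4 bases, called DR4. The stretch upstream of ABCA1 is shown because it was the only one among the promoter windows of 6 of the 8 genes with a match to this repeat on either strand at no more than 2 mismatches among the 12 fixed letters. It is the 250 bases before the annotated start, chr9:104928156-104928405 of GRCh38.p14 from RefSeq, on the minus strand and read toward the gene, with the match in capitals.
ABCA1: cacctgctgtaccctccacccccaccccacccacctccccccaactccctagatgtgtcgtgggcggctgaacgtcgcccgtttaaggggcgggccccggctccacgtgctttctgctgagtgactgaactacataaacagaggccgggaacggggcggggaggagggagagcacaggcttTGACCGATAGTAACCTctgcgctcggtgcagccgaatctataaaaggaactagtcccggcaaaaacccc
The match lies 69 to 54 bases before the start. Read on the other strand, with both copies of the repeat in capitals and the spacer in lower case, it is as follows.
ABCA1 DR4: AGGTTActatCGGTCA
Of 35116 human promoter windows of 300 bases in the same table, 822 (2.34%) held such a match, and 13 of the 18 other LXR target genes listed for comparison had a window, of which 1 held one. The ABCA1 window held 23 CpG dinucleotides, against a median of 14 over all windows. Windows of NR1H2, NR1H3, MYLIP, APOE and LPCAT3 held no match in these bases. ABCG1 and SMPDL3A were not among the windows.

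All 8 human genes had the coordinates of GRCh38 in the files and are protein coding: ABCA1 at chr9:104781006-104928155, ABCG1 at chr21:42199689-42297244, NR1H2 at chr19:50329653-50383388, NR1H3 at chr11:47248300-47269033, MYLIP at chr6:16129086-16148248, APOE at chr19:44905791-44909393, SMPDL3A at chr6:122789049-122809720 and LPCAT3 at chr12:6976185-7018477. LPCAT3 overlaps EMG1 and C1S on the opposite strand, NR1H3 overlaps ACP2 and NR1H2 overlaps NAPSA and NAPSB. Whether the counting used strand is not stated in these sources, so reads of these pairs may not have been told apart.

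Libraries held 13693927 to 23217215 counts. The hairpin lowered BAP1 mRNA, which was at 13.4 and 20.3 CPM (counts per 1000000 counts) with shBAP1 in H2810, against 115 and 117 CPM with the random hairpin, and at 15.4 and 17.7 CPM with shBAP1 in MSTO-211H, against 100 and 103 CPM. In mouse cells Bap1, counted over the whole gene, was at 30.5, 33.3 and 44.1 CPM in BNC cells, against 60.2 and 62.0 CPM in NC cells, a difference that did not pass the test (adjusted p = 0.62, edgeR). BNC library 6 stood apart: the mesothelial marker Msln was at 0.351 CPM and Krt18 at 0 there, against 488 to 880 CPM and 22.0 to 151 CPM in the other 4 mouse libraries. Krt19 (0.176 CPM), Pdpn (0.220 CPM), Lrrn4 and Bnc1 (0.0439 CPM each) and Upk3b (1.84 CPM) were also lower in it than in the other 4. Calb2 and Itln1 were at 0 in every mouse library. Only the mesothelial marker Wt1 was not lower, at 130 CPM in it, against 8.54 to 109 CPM in the others. Of 13 leukocyte and macrophage markers in the human tables, AIF1, FCGR3A, MARCO and TYROBP were at 0 in all 16 libraries, and the summed level of the list was 1.4 to 5.04 CPM. MSLN was low in H2810 (1.52 to 2.29 CPM in the inhibitor experiment), while KRT18 was at 668 to 1030 CPM there.

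The first question was which of the genes each line expressed. Levels between genes are compared as CPM per kilobase of merged exon. In H2810 with DMSO the order was MYLIP at 11.8, LPCAT3 at 9.74, NR1H2 at 8.80, SMPDL3A at 2.38, NR1H3 at 1.67, ABCA1 at 0.489, APOE at 0.147 and ABCG1 at 0.00933 CPM per kilobase, as means of 2 libraries. No neighbours in that order overlapped between their libraries. In H2731 with DMSO NR1H2 led with 10 ± 0.678 CPM per kilobase (SD, n = 2), LPCAT3 followed with 6.68 ± 0.0873, and ABCG1 and ABCA1 stood last with 0.266 ± 0.115 and 0.187 ± 0.0259, overlapping each other. In MSTO-211H with the random hairpin the leading genes were NR1H2 at 10.1 ± 0.346, LPCAT3 at 7.05 ± 0.548 and MYLIP at 5.60 ± 0.103 CPM per kilobase, and ABCA1 was the fourth at 2.28 ± 0.122.

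NR1H2, which encodes LXR-beta, the form found in most tissues, was the more abundant receptor mRNA in every library. Its level per kilobase was 4.62 and 5.62 times that of NR1H3, which encodes LXR-alpha, in H2810 with GSK126, and 4.80 and 5.82 times with DMSO. In H2731 the ratio was 10.6 and 10.4 with GSK126, against 8.56 and 8.15 with DMSO. MSTO-211H with the random hairpin had ratios of 22.3 and 23.8, the highest of the human libraries. The mouse libraries held 1 to 15 Nr1h3 counts each, and their ratios ran from 33.1 to 387.

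**Figure D1:**
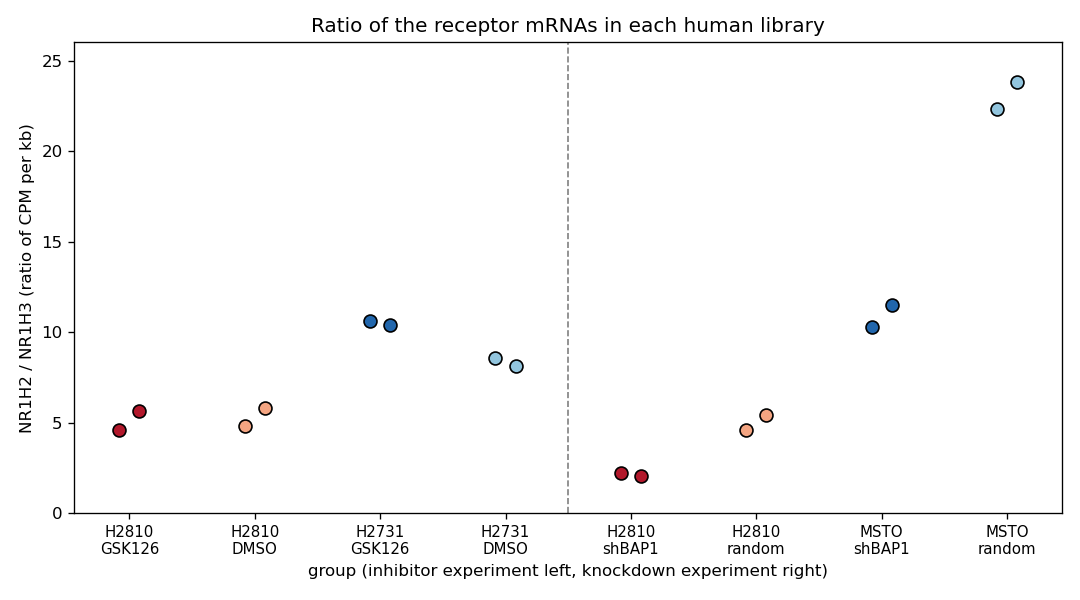
Ratio of NR1H2 to NR1H3, each as CPM per kilobase of exon, in each human library (vertical axis, linear from 0); points are single libraries, with the inhibitor experiment left of the dashed line and the knockdown experiment right of it. The ratio was lower with shBAP1 than with the random hairpin in both lines (2.24 and 2.04 against 4.60 and 5.45 in H2810, 10.3 and 11.5 against 22.3 and 23.8 in MSTO-211H).

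The comparison of H2731 with H2810 under DMSO gives the difference between a BAP1 mutated and a BAP1 wild type line, in which line and BAP1 state cannot be told apart. A gene is called when its p, adjusted over all 15999 genes tested in this table by the Benjamini-Hochberg method, is under 0.05 in edgeR's quasi-likelihood test. All 8 genes were called, 4 higher and 4 lower in H2731, where 41.5% of all genes were called higher and 40.7% lower, so a call here is common. Nothing is read from that count: APOE and ABCG1 had to differ, and H2810 with DMSO enters the known response of ABCA1. APOE, ABCG1, SMPDL3A and NR1H2 were the higher ones, and MYLIP, ABCA1, LPCAT3 and NR1H3 the lower ones.

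MYLIP, also called IDOL, tags lipoprotein receptors for degradation. It was at 7.74 and 8.45 CPM in H2731 with DMSO, against 34.3 and 38.0 CPM in H2810 with DMSO. Both H2731 libraries lay far below both H2810 libraries, a log2 fold change of -2.17 ± 0.09 (SE; adjusted p = 5.72e-15). Of the 6 lipoprotein receptors listed with it, 4 were called higher and 2 lower in H2731. Of all genes, 41.5% were called higher and 40.7% lower. VLDLR, a receptor for triglyceride-rich particles, was among the higher ones at 4.49 ± 0.10 (adjusted p = 9.42e-19).

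APOE, the apolipoprotein that accepts cholesterol from the transporters, was at 3.61 and 3.64 CPM in H2731 with DMSO, against 0.343 and 0.293 CPM (6 counts in each library) in H2810 with DMSO. The groups were far apart, with a log2 fold change of 3.50 ± 0.29. ABCG1, which hands cholesterol to HDL particles, had 26 and 42 counts in H2731 with DMSO, against 2 and 0 counts in H2810 with DMSO. The ratio of the summed counts, scaled for depth, was 30.2 with a 95% exact interval of 8.05 to 255, which covers counting error only. Both genes passed the filter on low counts through H2731 alone, so they had to differ between the lines and no p is given.

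ABCA1, which exports cholesterol and phospholipid to lipid-poor apolipoprotein, was at 1.91 and 2.33 CPM in H2731, against 5.42 and 5.66 CPM in H2810, both with DMSO. The groups did not overlap (log2 fold change -1.40 ± 0.16). No p is given for ABCA1 here, because H2810 with DMSO enters its known response. LPCAT3, which puts polyunsaturated chains into membrane phospholipids, was lower at -0.54 ± 0.05 (adjusted p = 1.49e-08), and NR1H3 was lower at -0.47 ± 0.13 (adjusted p = 0.00224). SMPDL3A, a secreted phosphodiesterase related to acid sphingomyelinase, was higher at 0.63 ± 0.12 (adjusted p = 6.45e-05). NR1H2 was higher by only 0.19 ± 0.06 (adjusted p = 0.00697), a call lost without H2810 DMSO library 1 (adjusted p = 0.0689) or H2731 DMSO library 1 (adjusted p = 0.125). Summed fibroblast markers also differed, at 377 to 399 CPM in H2731 and 9460 to 10600 CPM in H2810; their part in these differences was not tested.

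GSK126 against DMSO in H2810 is the comparison whose ABCA1 response was known when the genes were chosen. ABCA1 was at 28.7 and 29.2 CPM with GSK126, against 5.42 and 5.66 CPM with DMSO. Both treated libraries lay well above both controls, with a 5.21-fold higher level and a log2 fold change of 2.38 ± 0.09. Among the 15999 genes tested it had the 115th most positive log2 fold change. In bulk RNA, more cells expressing a gene and more RNA per cell cannot be told apart, here and in each comparison that follows.

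The other genes called higher were SMPDL3A, LPCAT3 and MYLIP. SMPDL3A was at 10.3 and 8.98 CPM with GSK126, against 5.71 and 5.47 CPM with DMSO, a log2 fold change of 0.79 ± 0.12. LPCAT3 was at 65.8 and 66.3 CPM with GSK126, against 46.2 and 45.2 CPM with DMSO, a change of 0.53 ± 0.05. For each gene the treated libraries lay above the controls. MYLIP was at 50.2 and 50.3 CPM with GSK126, against 34.3 and 38.0 CPM with DMSO, and its groups did not overlap either (0.47 ± 0.06).

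In all, 4 of the 8 were called higher and 0 lower, where 16.3% of all genes were called higher and 12.9% lower; nothing is read from that count, because the known response of ABCA1 enters it. The receptors themselves differed little: NR1H2 by 0.12 ± 0.06 and NR1H3 by 0.18 ± 0.12. APOE had 5 and 10 counts with GSK126, against 6 and 6 with DMSO, and ABCG1 1 and 2 counts against 2 and 0, so a change in either was not detectable at this depth. Markers of leukocytes and macrophages, cells known for high ABCA1, summed to 3.45 to 3.48 CPM with GSK126 and 3.2 to 3.22 CPM with DMSO, with 6 to 7 of 13 at 0 in both groups. The 5 endothelial markers were at 19.5 to 19.9 CPM with GSK126 and 11.4 to 11.7 CPM with DMSO, KDR among them at 8.83 and 8.17 CPM against 3.60 and 3.46 CPM, and CDH5 was at 0 in all 4 libraries. Summed mesothelial markers were at 1100 to 1110 CPM with GSK126 and 1460 to 1530 CPM with DMSO, and fibroblast markers at 8610 to 8890 CPM and 9460 to 10600 CPM. The part of these markers in the members' values was not tested. EZH2, the target of the drug, was itself at 39.0 ± 0.482 CPM with GSK126 and 33.2 ± 0.433 CPM with DMSO (SD, n = 2 each).

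**Figure D2:**
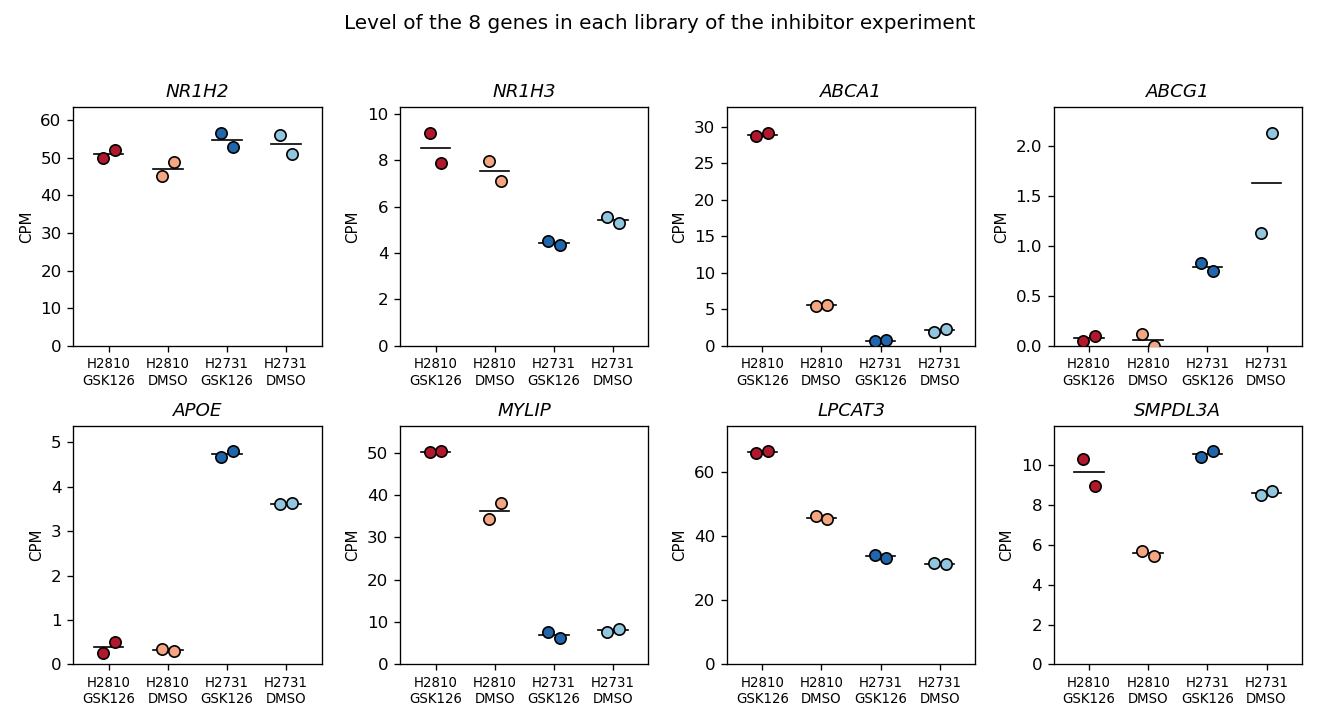
Level of each of the 8 genes in CPM (vertical axes, linear from 0) in H2810 and H2731 cells with GSK126 or DMSO; each point is 1 library and each line the mean of 2. ABCA1 was at 28.7 and 29.2 CPM with GSK126 in H2810 and at 0.634 and 0.799 CPM with GSK126 in H2731, the highest and the lowest of the 4 groups.

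In H2731 GSK126 went with less ABCA1 mRNA. ABCA1 was at 0.634 and 0.799 CPM (13 and 17 counts) with GSK126, against 1.91 and 2.33 CPM (44 and 46 counts) with DMSO. Both treated libraries lay below both controls, 2.92-fold lower, and ABCA1 fell by the test (log2 fold change -1.54 ± 0.25, adjusted p = 1.42e-04, edgeR). It had the 93rd most negative log2 fold change of the genes tested. The call held when any 1 library of the 2 groups was left out, with log2 fold changes of -1.72 to -1.39.

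ABCG1 and SMPDL3A also passed the threshold, by a narrow margin. ABCG1 had 17 and 16 counts with GSK126, against 26 and 42 with DMSO, a log2 fold change of -1.01 ± 0.35 (adjusted p = 0.0417). One DMSO library lay far above the other 3: without it (DMSO library 2) the change was -0.52 with an adjusted p of 0.453, and without GSK126 library 1 or 2 the adjusted p was 0.11 or 0.182. SMPDL3A was at 10.4 and 10.7 CPM with GSK126, against 8.52 and 8.71 CPM with DMSO, a log2 fold change of 0.29 ± 0.10 (adjusted p = 0.0373). Its groups did not overlap, but without DMSO library 1 or 2, or GSK126 library 1 or 2, the adjusted p was 0.156, 0.0927, 0.0816 or 0.172.

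In all, 1 of the 8 genes was called higher and 2 lower in H2731, where 13.8% of all genes were called higher and 10.9% lower, and the members' median log2 fold change was -0.09. The others did not pass: APOE at 0.39 ± 0.16 (adjusted p = 0.0834), NR1H3 at -0.30 ± 0.14 (adjusted p = 0.133), MYLIP at -0.21 ± 0.12 (adjusted p = 0.219), LPCAT3 at 0.10 ± 0.06 (adjusted p = 0.203) and NR1H2 at 0.03 ± 0.06 (adjusted p = 0.793). Summed leukocyte and macrophage markers were at 3.51 to 3.81 CPM with GSK126 and 4.86 to 5.04 CPM with DMSO, mesothelial markers at 2530 to 2540 CPM and 3220 to 3540 CPM, fibroblast markers at 295 to 302 CPM and 377 to 399 CPM, and endothelial markers at 1.5 to 1.9 CPM and 1.21 to 1.35 CPM. Their part in these changes was not tested.

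The response to GSK126 can be set side by side in the lines, as the response in H2731 minus that in H2810. For ABCA1 this difference was -3.93 ± 0.27 on the log2 scale. For MYLIP it was -0.68 ± 0.13, with both treated libraries above the controls in H2810 and both below them in H2731, where its change did not pass the test. SMPDL3A (-0.49 ± 0.15) and LPCAT3 (-0.43 ± 0.07) were higher with the drug in H2810, with smaller positive values in H2731. By the rule used elsewhere, 0 of the 8 were called higher and 4 lower, where 8.08% of all genes were called higher and 6.66% lower; nothing is read from that count, because H2810 with DMSO and the known response enter it.

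**Figure D3:**
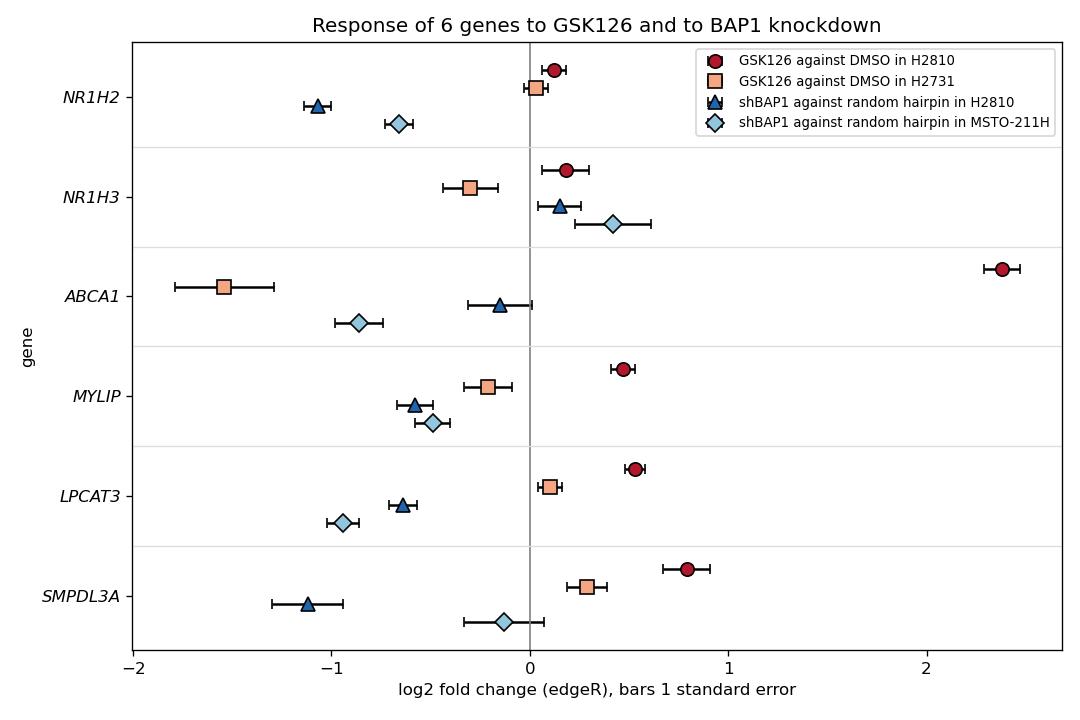
Log2 fold changes of 6 of the genes (rows) for GSK126 against DMSO (H2810, H2731) and for shBAP1 against the random hairpin (H2810, MSTO-211H), as symbols; bars are 1 standard error and the vertical line marks 0. ABCA1 spans from -1.54 with GSK126 in H2731 to 2.38 with GSK126 in H2810, while NR1H2, MYLIP and LPCAT3 lie left of 0 with shBAP1 in both lines.

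Other genes of the pathway give the setting of these values. Of 18 further LXR target genes, 12 passed the filter on low counts. With GSK126 in H2810, 8 of the 12 were called higher and 1 lower, where 16.3% of all genes were called higher and 12.9% lower. Their median log2 fold change was 0.59, against 0.00 over all genes. Among the 12, EEPD1, known to help cholesterol efflux in macrophages, rose by 1.67 ± 0.08 and SCD, the desaturase that makes monounsaturated fatty acids, by 0.89 ± 0.03.

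In H2731 7 of the 12 rose and 1 fell with GSK126, with a median of 0.53. Of all genes, 13.8% were called higher and 10.9% lower there. SCD rose by 1.09 ± 0.03 (adjusted p = 1.51e-14), PNPLA3, a lipid droplet hydrolase, by 0.82 ± 0.17 (adjusted p = 0.0013), and LPL, the lipase of circulating triglycerides, by 0.78 ± 0.14 (adjusted p = 5.13e-04). The gene that fell was SREBF1, the regulator of fatty acid synthesis, at -0.18 ± 0.05 in H2731 (adjusted p = 0.0143). In H2810 SREBF1 rose by 0.81 ± 0.05, and the responses differed by -0.99 ± 0.07. EEPD1 had -0.11 ± 0.17 in H2731 (adjusted p = 0.686), and its response there differed from that in H2810 by -1.79 ± 0.19. The members are not counted among these genes, and the list, like the members, was chosen with earlier results known. For this list and those below, no p is given with GSK126 in H2810 or for the difference between the lines. Nothing is read from the counts there.

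Genes under SREBP2 were called higher in all 13 cases with GSK126 in H2731, with a median log2 fold change of 0.64. The share of all genes called higher there was 13.8%. HMGCS1, an early enzyme of cholesterol synthesis, rose by 1.11 ± 0.03 (adjusted p = 2.81e-14) and INSIG1, which retains the SREBP complex, by 0.95 ± 0.04 (adjusted p = 4.62e-13). In H2810 7 of the 13 rose and 2 fell with GSK126, where 16.3% of all genes were called higher and 12.9% lower. Their median was 0.14. By the rule used elsewhere, 10 of the 13 responded more in H2731 and 0 less. For all genes these shares were 8.08% and 6.66%. Among the 10, HMGCS1 differed by 1.08 ± 0.05 and FDFT1, squalene synthase, by 0.76 ± 0.05.

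Makers and removers of the LXR ligands, RXR partners and cholesterol carriers were listed too. With GSK126, 16.3% of all genes were called higher and 12.9% lower in H2810, and 13.8% and 10.9% in H2731. Of 9 genes for oxysterol synthesis and clearance 5 were tested, and 2 rose with GSK126 in H2810. CYP27A1, which makes 27-hydroxycholesterol, was among the 2, at 0.53 ± 0.12. The other was CYP7B1, with a larger change of 2.34 ± 0.35 at a low level (mean log2 CPM of -0.54). In H2731 1 rose and 0 fell. Of 7 tested RXR and coregulator genes, 0 rose and 1 fell with GSK126 in H2810, the coactivator NCOA3 at -0.28 ± 0.05. In H2731 2 rose and 2 fell, including RXRA, the main RXR partner, at -0.28 ± 0.04 (adjusted p = 1.93e-05). Of 18 tested genes for cholesterol transport and storage, 8 rose and 5 fell in H2810, and 10 rose and 0 fell in H2731. STARD4, a carrier of free cholesterol, rose by 0.78 ± 0.06 in H2810 and by 0.94 ± 0.04 in H2731 (adjusted p = 6e-12 in H2731).

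Paralogs of the transporters, and genes listed with SMPDL3A and LPCAT3 for a like activity, were mixed in direction. The shares of all genes called higher and lower with GSK126 were 16.3% and 12.9% in H2810, and 13.8% and 10.9% in H2731. Of 11 tested ABCA and ABCG paralogs, 2 rose and 3 fell with GSK126 in H2810, and 1 rose and 3 fell in H2731. ABCA8 fell in both, at -0.44 ± 0.04 in H2810 and -0.42 ± 0.13 in H2731 (adjusted p = 0.019 in H2731). ABCA7, a lipid transporter close to ABCA1 in sequence, fell in H2731 at -0.53 ± 0.06 (adjusted p = 2.03e-06). Of the genes listed with SMPDL3A 4 were tested, and SMPD1, acid sphingomyelinase, rose in H2810 by 0.48 ± 0.05. SMPD3, a neutral sphingomyelinase, fell in H2731 at -1.14 ± 0.05 (adjusted p = 5.65e-12). Among 6 acyltransferases listed with LPCAT3, 2 rose and 0 fell in each line. LPCAT1 rose in both, by 0.16 ± 0.04 in H2810 and by 0.43 ± 0.05 in H2731 (adjusted p = 5e-06 in H2731).

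Knockdown of BAP1 in H2810 lowered 4 of the 8 genes and raised 0, where 23.3% of all genes were called lower and 22.5% higher. Here 15872 genes were tested. NR1H2, SMPDL3A, LPCAT3 and MYLIP fell, and the members' median log2 fold change was -0.36, against -0.03 over all genes. Both H2810 groups of this experiment had a wider spread between their libraries than the other human groups, with a chi-square per degree of freedom of 16.2 (shBAP1) and 17.1 (random hairpin) against 2.01 to 6.19.

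NR1H2 was at 23.9 and 24.7 CPM with shBAP1, against 49.1 and 53.1 CPM with the random hairpin. The knockdown libraries lay 2.1-fold lower and far from the controls (log2 fold change -1.07 ± 0.07, adjusted p = 9.17e-07). NR1H3 was at 9.06 and 10.2 CPM with shBAP1, against 9.06 and 8.27 CPM, and did not pass the test (0.15 ± 0.11, adjusted p = 0.308). The ratio of the receptor mRNAs was accordingly 2.24 and 2.04 with shBAP1, against 4.60 and 5.45 with the random hairpin.

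SMPDL3A was at 2.38 and 2.17 CPM with shBAP1, against 4.38 and 5.59 CPM with the random hairpin, a log2 fold change of -1.12 ± 0.18 (adjusted p = 4.16e-04). LPCAT3 was at 21.0 and 22.5 CPM with shBAP1, against 33.5 and 34.5 CPM (-0.64 ± 0.07, adjusted p = 3.96e-05). MYLIP was at 14.0 and 12.9 CPM with shBAP1, against 21.4 and 18.7 CPM (-0.58 ± 0.09, adjusted p = 2.8e-04). None of these 3 genes had overlapping groups, and each call held when any 1 library of the 2 groups was left out.

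ABCA1 did not share these falls in H2810. It was at 7.65 and 6.06 CPM with shBAP1, against 8.37 and 6.90 CPM with the random hairpin. The groups overlapped, and the log2 fold change of -0.15 ± 0.16 did not pass the test (adjusted p = 0.472). APOE had 8 and 10 counts against 13 and 7 (-0.12 ± 0.51, adjusted p = 0.881). ABCG1 had 1 and 3 counts with shBAP1 against 0 and 0, so the summed counts were at least 1.36-fold higher against a floor of 3 counts over the group, with an adjusted p of 0.0645 in edgeR and 0.0348 in limma-voom.

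Summed fibroblast markers were at 7540 to 8450 CPM with shBAP1 in H2810 and 10200 to 10800 CPM with the random hairpin, with 2 and 1 to 2 of 7 at 0, and leukocyte and macrophage markers at 2.64 to 2.91 CPM and 3.7 to 3.73 CPM. Mesothelial markers were at 647 to 657 CPM and 568 to 608 CPM, and endothelial markers at 8.13 to 9.55 CPM and 7.39 to 8.2 CPM. Their part in the falls of NR1H2, SMPDL3A, LPCAT3 and MYLIP was not tested.

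**Figure D4:**
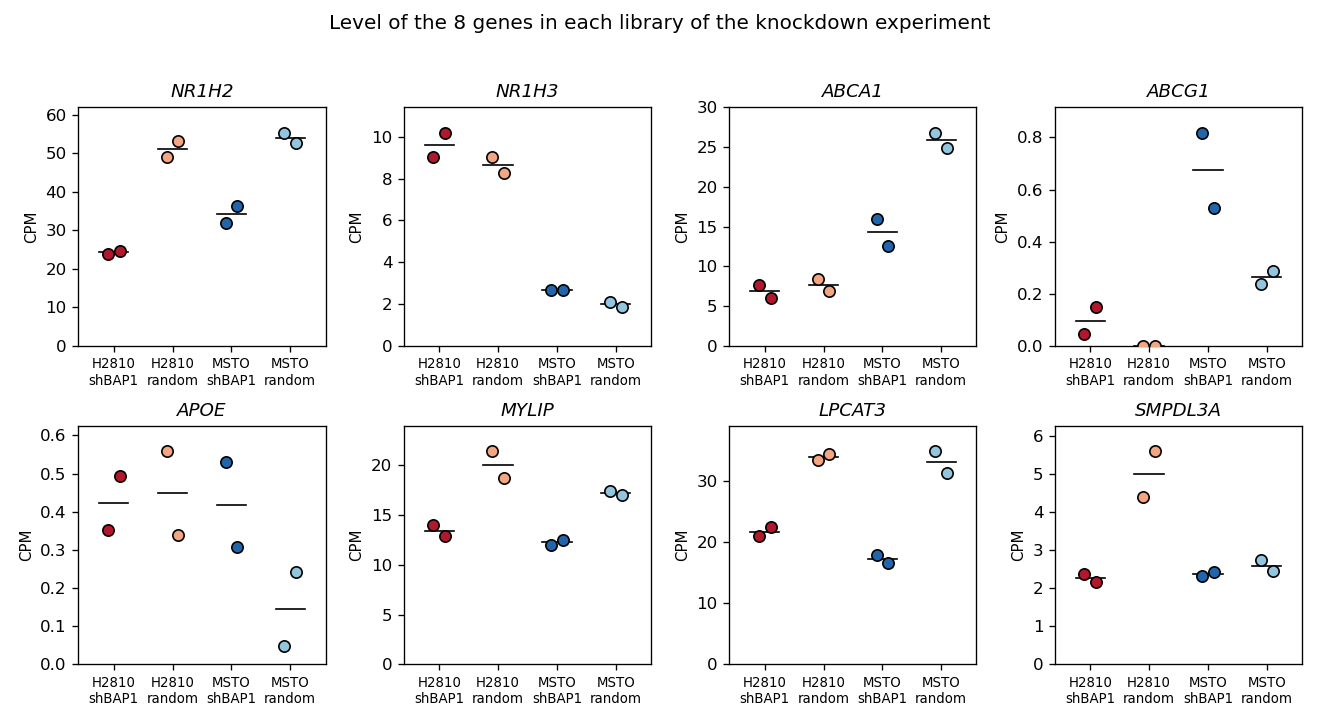
Level of each of the 8 genes in CPM (vertical axes, linear from 0) in H2810 and MSTO-211H (MSTO) cells with shBAP1 or the random hairpin; each point is 1 library and each line the mean of 2. NR1H2 was at 23.9 and 24.7 CPM with shBAP1 and 49.1 and 53.1 CPM with the random hairpin in H2810, and ABCA1 was at 16.0 and 12.6 CPM with shBAP1 and 26.8 and 24.9 CPM with the random hairpin in MSTO-211H.

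With shBAP1 in MSTO-211H 4 of the 8 genes fell and 1 was called higher. Of all genes, 24.5% were called lower and 21.7% higher. The members' median log2 fold change was -0.31, against -0.02 over all genes. Nothing is read from the higher call, of ABCG1, because that gene had to differ through the filter on low counts. ABCA1 was at 16.0 and 12.6 CPM with shBAP1, against 26.8 and 24.9 CPM with the random hairpin. The groups were apart, 1.82-fold lower with shBAP1 (log2 fold change -0.86 ± 0.12, adjusted p = 1.72e-04). LPCAT3 was at 18.0 and 16.6 CPM with shBAP1, against 34.9 and 31.3 CPM, also without overlap (-0.94 ± 0.08, adjusted p = 2.82e-06).

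NR1H2 was at 32.0 and 36.4 CPM with shBAP1, against 55.3 and 52.7 CPM with the random hairpin (-0.66 ± 0.07, adjusted p = 2.08e-05). MYLIP was at 12 and 12.5 CPM with shBAP1, against 17.4 and 17.0 CPM (-0.49 ± 0.09, adjusted p = 0.00113). In neither gene did the groups overlap, and the calls of ABCA1, LPCAT3, NR1H2 and MYLIP held without any 1 library. SMPDL3A was at 2.31 and 2.42 CPM with shBAP1, against 2.73 and 2.46 CPM, and did not pass (-0.13 ± 0.20, adjusted p = 0.637). NR1H3 was at 2.65 and 2.69 CPM with shBAP1, against 2.11 and 1.88 CPM, with a log2 fold change of 0.42 ± 0.19 that did not pass either (adjusted p = 0.0874).

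The gene called higher in MSTO-211H was ABCG1, with 17 and 12 counts with shBAP1, against 5 and 6 counts with the random hairpin. Its log2 fold change was 1.32 ± 0.47, and 0.99 to 1.61 without any 1 library. The gene passed the filter on low counts through MSTO-211H with shBAP1 alone and so had to differ. No p is given for it and nothing is read from its call, which was lost with a replicate block. APOE had 11 and 7 counts with shBAP1, against 1 and 5 (1.49 ± 0.66, adjusted p = 0.0901).

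Summed markers of other cell types did not overlap between the MSTO-211H groups. Leukocyte and macrophage markers summed to 3.41 to 3.66 CPM with shBAP1 and 1.4 to 2.11 CPM with the random hairpin, with 5 to 7 and 4 to 6 of 13 at 0. PTPRC among them, which encodes CD45, was at 1.59 and 1.63 CPM with shBAP1, against 0.0957 and 0.289 CPM. ITGAM was higher with shBAP1 too (1.39 and 1.37 against 0.191 and 0.145 CPM). ADGRE1 went the other way, at 0.0481 and 0.132 CPM with shBAP1, against 1.2 and 0.53 CPM. AIF1, FCGR3A, MARCO and TYROBP were at 0 in all 4 libraries. Fibroblast markers summed to 1150 to 1250 CPM with shBAP1 and 1010 to 1050 CPM with the random hairpin. Among them COL3A1 was higher with shBAP1 (1170 and 1080 against 879 and 855 CPM). COL1A1 (31.6 and 30.2 against 73.5 and 61.2 CPM) and PDGFRB (43.0 and 40.2 against 96.1 and 92.4 CPM) were lower with it. LUM (0.818 and 0.793 against 4.21 and 3.66 CPM) and DCN (0 and 0.132 against 0.431 and 0.337 CPM) were lower too. PDGFRA and COL1A2 were near or at 0. Mesothelial markers summed to 5650 to 6010 CPM and 4960 to 5190 CPM, and endothelial markers to 3.17 to 3.7 CPM and 2.17 to 2.82 CPM. Their part in the members' values was not tested.

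ABCA1, NR1H2 and SMPDL3A responded differently to the hairpin in MSTO-211H than in H2810, by the test of the difference itself. The MSTO-211H response minus the H2810 response was -0.71 ± 0.20 for ABCA1 (adjusted p = 0.0247), 0.41 ± 0.10 for NR1H2 (adjusted p = 0.0113) and 0.99 ± 0.27 for SMPDL3A (adjusted p = 0.0192). ABCA1 was lowered more, and NR1H2 and SMPDL3A less, in MSTO-211H. That is 2 members higher and 1 lower, where 11.2% of all genes were called higher and 16.5% lower. Each call was lost without some single library: ABCA1 without H2810 random hairpin library 2 (adjusted p = 0.0594), H2810 shBAP1 library 1 (0.0965), MSTO-211H random hairpin library 1 (0.0785) or MSTO-211H shBAP1 library 2 (0.0873). NR1H2 was lost without MSTO-211H random hairpin library 2 (0.0558) or shBAP1 library 2 (0.0692). SMPDL3A was lost without H2810 random hairpin library 2 (0.0574), MSTO-211H random hairpin library 2 (0.0743) or MSTO-211H shBAP1 library 1 (0.0517) or 2 (0.0746), all as adjusted p-values. For MYLIP (0.09 ± 0.13, adjusted p = 0.645) and LPCAT3 (-0.29 ± 0.11, adjusted p = 0.067) no difference was called.

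MSTO-211H against H2810, both with the random hairpin, gave 2 genes higher and 4 lower, where 39% of all genes were called higher and 40.7% lower. ABCA1 was at 26.8 and 24.9 CPM in MSTO-211H, against 8.37 and 6.90 CPM in H2810, 3.37-fold higher without overlap (log2 fold change 1.75 ± 0.13, adjusted p = 2.07e-07). ABCG1 had 5 and 6 counts in MSTO-211H, against 0 and 0 in H2810, which is at least 3.86-fold higher against a floor of 3 counts over the group. NR1H3 was at 2.11 and 1.88 CPM in MSTO-211H, against 9.06 and 8.27 CPM in H2810, 4.34-fold lower (-2.12 ± 0.15, adjusted p = 1.01e-07).

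SMPDL3A was lower in MSTO-211H at -0.93 ± 0.18 (adjusted p = 4.56e-04). The remaining calls were narrow: APOE at -1.62 ± 0.65 (adjusted p = 0.038; 1 and 5 counts against 13 and 7) and MYLIP at -0.23 ± 0.09 (adjusted p = 0.0298). Without H2810 random hairpin library 1 their adjusted p was 0.224 and 0.259, and without MSTO-211H random hairpin library 1 it was 0.265 and 0.0799; MYLIP was also lost without MSTO-211H library 2 (0.136). NR1H2 (0.08 ± 0.07, adjusted p = 0.284) and LPCAT3 (-0.04 ± 0.07, adjusted p = 0.636) were not called. Summed fibroblast markers were at 1010 to 1050 CPM in MSTO-211H and 10200 to 10800 CPM in H2810; their part was not tested.

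Among the wider pathway genes, the 11 other LXR targets tested had no common direction with shBAP1. In H2810 4 rose and 5 fell, and in MSTO-211H 3 rose and 3 fell. Of all genes, 22.5% were called higher and 23.3% lower in H2810, and 21.7% and 24.5% in MSTO-211H. FASN, fatty acid synthase, rose by 0.88 ± 0.12 in H2810 (adjusted p = 1.07e-04) and by 0.71 ± 0.11 in MSTO-211H (adjusted p = 3.94e-04). Of the 13 SREBP2 targets, 12 rose and 0 fell in H2810, and 11 rose and 2 fell in MSTO-211H. IDI1, an isomerase of cholesterol synthesis, rose by 1.17 ± 0.08 in H2810 (adjusted p = 7.18e-07) and 0.76 ± 0.08 in MSTO-211H (adjusted p = 1.16e-05), and SREBF2, which encodes SREBP2, rose by 1.01 ± 0.05 (adjusted p = 1.49e-07) and 0.48 ± 0.05 (adjusted p = 2.22e-05).

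Cholesterol carriers and coregulators held genes of both directions. The shares of all genes called higher and lower with shBAP1 were 22.5% and 23.3% in H2810, and 21.7% and 24.5% in MSTO-211H. Of 17 tested transport and storage genes, 6 rose and 8 fell in H2810, and 2 rose and 12 fell in MSTO-211H. STARD3, a cholesterol carrier of late endosomes, fell by 1.41 on the log2 scale in H2810 (SE 0.08, adjusted p = 1.75e-07). In MSTO-211H it fell by 1.73 (SE 0.10, adjusted p = 1.51e-07). NPC2, which lifts cholesterol out of lysosomes, fell in H2810 at -0.71 ± 0.06 (adjusted p = 2.46e-06). Of the 7 coregulator genes 1 rose and 3 fell in H2810 and 3 rose and 1 fell in MSTO-211H, with the coactivator NCOA1 lower in both, at -0.78 ± 0.08 (adjusted p = 1.12e-05) and -1.26 ± 0.09 (adjusted p = 1.01e-06).

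Other genes listed beside the members went both ways with shBAP1. Among all genes 22.5% were called higher and 23.3% lower in H2810, and 21.7% and 24.5% in MSTO-211H. MBOAT2, an acyltransferase related to LPCAT3, fell by 0.98 on the log2 scale in H2810 (SE 0.05, adjusted p = 1.38e-07) and by 1.64 in MSTO-211H (SE 0.06, adjusted p = 1.03e-08), while LPCAT1 rose by 0.61 ± 0.05 (adjusted p = 2.37e-06) and 0.32 ± 0.05 (adjusted p = 2.86e-04). SMPD1 fell in H2810 at -0.85 ± 0.06 (adjusted p = 1.3e-06). Of the 10 ABCA and ABCG paralogs tested, 2 rose and 4 fell in H2810 and 3 rose and 2 fell in MSTO-211H, ABCA9 falling in H2810 at -1.46 ± 0.19 (adjusted p = 1.09e-04) and ABCA8 in MSTO-211H at -0.63 ± 0.08 (adjusted p = 5.55e-05). Of the 6 lipoprotein receptors, 3 rose and 2 fell in H2810 and 3 rose and 1 fell in MSTO-211H; VLDLR rose in both, by 0.98 ± 0.19 (adjusted p = 0.00139) and 0.36 ± 0.10 (adjusted p = 0.0129).

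To find genes whose values were most like those of ABCA1, log2 fold changes were compared over 4 contrasts (GSK126 in H2810 and in H2731, shBAP1 in H2810 and in MSTO-211H) among 11866 genes with a mean of at least 1 log2 CPM in both human tables. The nearest by Euclidean distance were UNC93B1 (1.56), SATB1 (1.64), ZNF518B (1.72), EEPD1 (1.73) and NPR1 (1.78). UNC93B1, SATB1, ZNF518B and EEPD1 had 3.22, 2.70, 2.36 and 1.67 with GSK126 in H2810, against 2.38 for ABCA1. In H2731, however, where ABCA1 had -1.54, the 5 genes ran only from -0.35 to 0.04, so none came close to ABCA1 in both lines. This is a description of 4 contrasts over 16 libraries.

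In the mouse cells 5 of the 8 orthologs passed the filter on low counts. None was called: 0 of the 12225 genes tested passed in edgeR in either direction (0% called higher and 0% lower), with 823 at an unadjusted p under 0.05, while DESeq2 called 89 higher and 213 lower and limma-voom 0. The spread between mouse libraries was wide, with a square root of the common dispersion of 0.539, against 0.0311 and 0.0533 in the human tables. BNC libraries 4 and 5 were much closer to each other (r = 0.995 across genes) than to the other 3 mouse libraries (r of 0.840 to 0.937), but differed by more than sampling noise (chi-square per degree of freedom 14.3) and were kept as separate libraries.

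Abca1 was at 3.74, 3.84 and 199 CPM in BNC cells, against 6.73 and 103 CPM in NC cells. Within each genotype the libraries differed by more than 10-fold, and the groups overlapped. The log2 fold change was 0.33 ± 2.06 (adjusted p = 0.989). Leaving out 1 library at a time moved it from -3.87 to 3.35. The high BNC library is library 6, in which Msln, Krt18, Krt19, Pdpn, Lrrn4 and Bnc1 were near or at 0 and Wt1 was not. Single fibroblast markers did not follow Abca1 alike. Col1a1 was at 434, 555 and 5720 CPM in BNC cells, against 1850 and 4280 CPM in NC cells. Pdgfrb was at 0.449, 0.449 and 115 CPM in BNC cells, against 10.4 and 26 CPM in NC cells. Pdgfra was at 0.399, 0.199 and 22 CPM in BNC cells, against 1.59 and 32 CPM in NC cells. Col1a1, Pdgfrb and Pdgfra were each highest in the 2 libraries high in Abca1. Lum was at 0 except in NC library 4, at 0.869 CPM. Col1a2 was at 863, 1000 and 6410 CPM in BNC cells, against 2730 and 2250 CPM in NC cells, while Col3a1 (395, 434 and 88.3 CPM against 558 and 954 CPM) and Dcn (2.59, 2.19 and 1.54 CPM against 9.19 and 18.9 CPM) were lowest in BNC library 6.

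That library also had Lyz2, a myeloid gene, at 33.2 CPM, against 0 to 0.353 CPM in the other 4. Ptprc, Tyrobp, Aif1, Marco and Laptm5 were at 0 in it, and at 0 to 0.0505 CPM in the others. Csf1r was highest in it, at 3.03 CPM against 0.606 to 1.55 CPM. Mrc1 (0.0878 against 0.796 to 1.84 CPM) and Cd14 (0.659 against 2.74 to 5.61 CPM) were lowest in it. The summed level of the 11 leukocyte and macrophage markers was 8.97 to 38.6 CPM in BNC cells and 7.53 to 11.6 CPM in NC cells, with 5 and 5 to 7 of them at 0. Summed mesothelial markers were at 133 to 932 CPM in BNC cells and 977 to 1950 CPM in NC cells, and summed fibroblast markers at 1700 to 12300 CPM and 5160 to 7560 CPM. Their part in the Abca1 values was not tested.

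**Figure D5:**
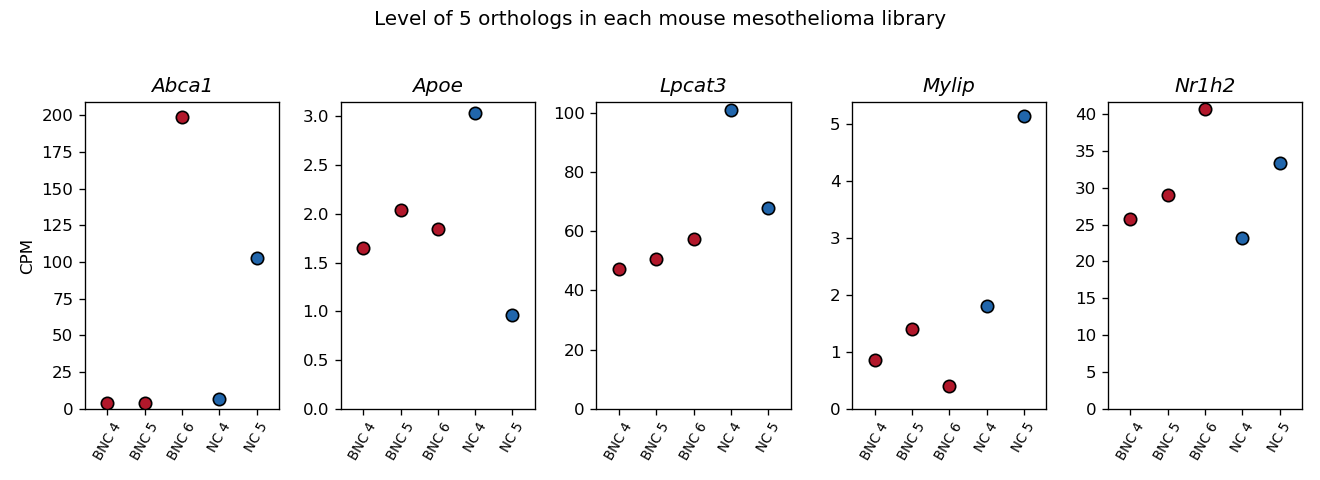
Level in CPM (vertical axes, linear from 0) of the 5 orthologs that passed the filter in each mouse library, with BNC libraries in red on the left and NC libraries in blue on the right. Abca1 was high in BNC 6 (199 CPM) and NC 5 (103 CPM) and under 10 CPM in the other 3, while Lpcat3 was lower in all 3 BNC libraries than in both NC libraries.

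Lpcat3 was at 47.4, 50.8 and 57.4 CPM in BNC cells, against 101 and 68.0 CPM in NC cells. All BNC libraries lay below both NC libraries, yet the difference did not pass (log2 fold change -0.71 ± 0.24, adjusted p = 0.677). Mylip was low, with 17, 28 and 9 counts in BNC cells, against 25 and 102 counts in NC cells, and did not pass either (-1.98 ± 0.78, adjusted p = 0.747). Nr1h2 was at 25.7, 29.0 and 40.7 CPM in BNC cells, against 23.1 and 33.4 CPM in NC cells, overlapping (0.17 ± 0.31, adjusted p = 0.948), and Apoe was at 1.65, 2.04 and 1.84 CPM, against 3.04 and 0.959 CPM (-0.11 ± 0.65, adjusted p = 0.988).

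The other 3 orthologs were near or at 0. Abcg1 and Smpdl3a had 0 counts in every BNC library, against 0 and 5 counts of Abcg1 and 0 and 8 counts of Smpdl3a in NC libraries 4 and 5. Nr1h3 had 1, 3 and 6 counts in BNC cells, against 5 and 15 counts in NC cells. Per kilobase, Lpcat3 (15.9 ± 1.56 in BNC cells and 25.9 ± 7.23 in NC cells; SD, n = 3 and 2) and Nr1h2 (9.49 ± 2.35 and 8.43 ± 2.18) led the order in both genotypes.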

How the data were processed

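Poly-A RNA libraries were sequenced as 65-base single-end reads on an Illumina HiSeq, per the labels' protocols. The submitters' processing notes name TopHat2 2.0.12, TopHat, HTSeq and DESeq2, and the mouse builds mm10 and GRCm38, with no role or order. The deposited values are raw read counts, with Ensembl genes in rows and libraries in columns. The dose, treatment times, hairpin sequence, human build and strand setting of the counting are not given in the sources used here; gene coordinates in the human files are those of GRCh38.

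Each of the 3 tables was fitted on its own with all its groups, which share 1 estimate of the spread: edgeR 4.0.16 (R 4.3.3), filterByExpr, TMM scaling, glmQLFit and glmQLFTest (two-sided), p-values adjusted by Benjamini-Hochberg across the genes of the table and calls at 0.05. Log2 fold changes are given with standard errors. Whether groups overlap is stated per gene as a description, with no share over all genes, and nothing is read from it alone. CPM values are counts per 1000000 of the TMM-scaled total, and per-kilobase values use merged exon lengths of GENCODE (GRCh38, GRCm38). Totals limit precision: a gene at 1 CPM rests on about 14 to 23 counts. Floors use 3 counts and intervals are exact at 95%. Alternatives were RLE scaling, filters, DESeq2 1.42.0, limma 3.58.1 (voom), a replicate block, fits of only the groups compared and leaving out each library. A row with no gene name in the knockdown table held 0 counts. The scripts were tested on simulated data. Comparisons within a table share control libraries (H2810 with DMSO enters 3), so no overlap between them is given. The members and lists were chosen with earlier results of these data known. Beside the members, genes named are BAP1, EZH2, CYP7B1 and the 5 genes nearest to ABCA1. Per list and comparison, up to 3 called genes with the largest change at a mean of at least 1 log2 CPM are named. Cell type markers are named as checks. Some items are not reported here.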

Additional observations from a re-analysis of the deposited data

Results flagged for a closer look

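The response of 3 genes to the BAP1 hairpin differed between the lines by the test of the difference, as the MSTO-211H response minus the H2810 response: ABCA1 by -0.71 ± 0.20 (adjusted p = 0.0247, edgeR), NR1H2 by 0.41 ± 0.10 (adjusted p = 0.0113) and SMPDL3A by 0.99 ± 0.27 (adjusted p = 0.0192). Each of these calls was lost when some single library was left out, with a largest adjusted p of 0.0965 for ABCA1, 0.0692 for NR1H2 and 0.0746 for SMPDL3A. For ABCA1 and MYLIP both GSK126 libraries lay above both DMSO libraries in H2810 and both below them in H2731, but in H2731 MYLIP did not pass the test (-0.21 ± 0.12, adjusted p = 0.219). The H2731 response minus the H2810 response was -3.93 ± 0.27 for ABCA1 and -0.68 ± 0.13 for MYLIP. Both are given as a description with no p, because the response of ABCA1 in H2810 was known when the genes were chosen.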

How the results depend on the processing

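Over 778 recomputed values of members, the sign changed in 23 and the call in 50, and none of the 23 was called in the reported fit or under the alternative. In the mouse comparison limma-voom gave -0.98 for Abca1 and 0.20 for Apoe, and the replicate block -2.87 for Abca1, -0.03 for Nr1h2 and 0.09 for Apoe. Without any 1 library the log2 values ran from -3.87 to 3.35 for Abca1, -0.07 to 0.46 for Nr1h2 and -0.72 to 0.94 for Apoe in mouse cells. They ran from -0.53 to 3.77 for ABCG1 and -0.27 to 0.68 for APOE with GSK126 in H2810, -0.04 to 0.10 for NR1H2 with GSK126 in H2731, and -0.29 to 0.66 for APOE in the difference in GSK126 response. With shBAP1 in H2810 they ran from -0.33 to 0.00 for ABCA1 and -0.37 to 0.30 for APOE; for MSTO-211H against H2810 from -0.11 to 0.05 for LPCAT3; and for the difference in shBAP1 response from -0.01 to 0.15 for MYLIP. With GSK126 in H2810 the log2 fold change of ABCA1 was 2.35 to 2.42 without any 1 library. The calls of ABCA1 with GSK126 in H2731, and of NR1H2, LPCAT3 and MYLIP with shBAP1 in both lines held under every alternative; low counts limit ABCG1 and APOE. With GSK126 in H2731, the members called higher were 0 with no filter and with DESeq2 (1 in the reported fit), and those called lower were 1 with a stricter filter, DESeq2 and limma-voom (2 in the reported fit). With shBAP1 in H2810, limma-voom called 1 higher. With shBAP1 in MSTO-211H, 0 were called higher with no filter, a stricter filter and DESeq2. The stricter filter left ABCG1 untested. For MSTO-211H against H2810, 1 was called higher with a stricter filter and with only the groups compared, and 2 were called lower with DESeq2 and with only the groups compared. For the difference in shBAP1 response, DESeq2 called 1 higher. The cause of the other changes was not tested.

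Leaving out each library gave 0 to 0 members higher and 1 to 2 lower with GSK126 in H2731, 3 to 4 higher in H2731 against H2810, 3 to 4 lower for the difference in GSK126 response, 0 to 0 higher with shBAP1 in MSTO-211H, 2 to 4 lower for MSTO-211H against H2810, and 0 to 2 higher and 0 to 2 lower for the difference in shBAP1 response. Where a group was left with 1 library, that library was assumed to vary like the other groups.

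Residuals of libraries with the same replicate number had correlations of -0.0646 to 0.0979 in the human tables. With 2 libraries per group the residuals of a group mirror each other, so this is a weak check. In the mouse table the correlation was 0.336 for replicate 4 and -0.306 for replicate 5, which does not settle whether they deviated together. The numbers were not taken as pairs. With the replicate block, the call of ABCG1 in MSTO-211H with shBAP1 was lost (0 called higher), and no other call of a member changed.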
